A study of Mus musculus with 10 samples.

Results

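The 10 genes described here encode antioxidant enzymes of the liver. Nqo1, Gclc, Gclm, Txnrd1, Hmox1 and Srxn1 are classical inducible targets of the transcription factor NRF2, and Cat, Sod1, Gpx1 and Gpx4 encode antioxidant enzymes that hepatocytes express at high levels without induction. The genes were chosen by name for these functions, and the rule that selects them uses no measured value. Earlier results of these data were known when they were chosen. All 10 were found by symbol among the 55401 genes of the count tables, and all 10 were among the 12234 genes expressed highly enough to be tested. They were compared between the livers of 5 wild-type mice and of 5 mice with a liver-specific knockout of Thrb, the gene of thyroid hormone receptor beta (THRB), to ask which transcripts depend on this receptor in the liver. The knockout mice, called Thrb hep-/- here, came from a cross of Thrb-loxP with Afp-Cre mice, in which the promoter of alpha-fetoprotein, active in the fetal liver, drives the recombinase. The labels give the strain of both genotypes as C57Bl6/J in the titles and as C56Bl6/J in the strain field, and all mice had free access to water and standard chow under a daily light and dark cycle, with no other treatment. The age, sex and collection time of these 10 mice, and whether the wild-type mice carried Cre or loxP alleles, are not given in the sources used here. The RNA came from whole liver tissue, so fewer cells of a type and less RNA per cell cannot be told apart.

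NRF2, encoded by Nfe2l2, is held in the cytoplasm by KEAP1, which hands it to a CUL3 ubiquitin ligase for degradation. Oxidants and electrophiles modify cysteines of KEAP1, NRF2 then accumulates, pairs with a small MAF protein and binds antioxidant response elements, while BACH1 occupies the same elements as a repressor, above all at Hmox1. The enzymes divide the work of detoxification: superoxide dismutases turn superoxide into hydrogen peroxide, catalase and glutathione peroxidases remove the peroxide, and the glutathione and thioredoxin systems supply the reducing equivalents from NADPH. Thyroid hormone raises mitochondrial respiration in the liver, and its receptors bind DNA as dimers with the retinoid X receptor.

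Short stretches before the transcription start sites of 4 members are shown, since they hold letters at which NRF2 or thyroid hormone receptors can bind DNA. The sequences are from RefSeq on GRCm38.p6 and cover 250 bases before to 50 bases after each annotated start, and 8 of the 10 members had such a window (Gclc and Hmox1 did not). The letters TGACNNNGC of the antioxidant response element were searched on both strands and were present in the windows of 4 of the 8 members, against 14.0% of all genes with a window. In 32851 windows, 12.4% held a match. In the lines below, written 5′ to 3′ along the strand of the gene, capitals mark the matched letters, which lie on the opposite strand in the first 3 lines. The last line shows AGGTCA, the core letters recognised by thyroid hormone receptors and other nuclear receptors, likewise searched on both strands.
Gclm, chr3:122245403-122245451, plus strand: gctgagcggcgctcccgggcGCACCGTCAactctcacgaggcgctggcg
Txnrd1, chr10:82859094-82859142, plus strand: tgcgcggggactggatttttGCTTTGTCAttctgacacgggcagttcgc
Sod1, chr16:90220686-90220734, plus strand: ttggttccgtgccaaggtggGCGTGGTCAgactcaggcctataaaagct
Cat, chr2:103485332-103485377, minus strand: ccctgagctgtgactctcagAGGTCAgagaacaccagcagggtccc
The match of Gclm began 134 bases before its start, that of Txnrd1 92 bases before the second of its 3 annotated starts and that of Sod1 56 bases before its start. In Srxn1 the letters GCTAGGTCA lay 29 bases into the transcribed part and overlapped an AGGTCA on the same bases. AGGTCA was found in 16.3% of all windows and in 18.1% of all genes with a window, and 3 of the 8 members had a match in at least 1 of their windows, namely Srxn1, Cat (204 bases before its start) and Gpx4. These are matches of letters and not sites of binding, which was not measured here.

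Libraries held between 26477195 and 28590704 counts, so that 3 counts correspond to between 0.105 and 0.113 CPM, counts scaled to the library total, and the lowest raw count of the 10 genes was 99, for Nqo1. The targeted gene was lower in each Thrb hep-/- mouse than in each wild-type mouse. Normalized CPM of Thrb were 33.3 ± 0.643 for the wild type and 26.7 ± 1.93 for Thrb hep-/- (SD, n = 5 each), a log2 fold change of −0.32 with a standard error of 0.067 and an adjusted p of 0.036 (edgeR's quasi-likelihood F-test, Benjamini-Hochberg adjusted), and gene-level counts cannot tell reads of the deleted exons from the rest. The 8 hepatocyte markers were high in every library, with summed normalized CPM between 86700 and 132000 in wild-type and between 106000 and 117000 in Thrb hep-/- livers. Over all genes tested, 4.08% were past an adjusted p of 0.15, the threshold of the study, with 1.51% higher and 2.57% lower in Thrb hep-/- livers, and 1.35% were past an adjusted p of 0.05. Of 16 acute-phase genes, 12 were past the threshold and lower in Thrb hep-/- livers, which is a second difference between the genotypes that runs alongside the loss of THRB.

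None of the 10 antioxidant genes passed an adjusted p of 0.15 between the genotypes. An unadjusted p below 0.05 was reached by 0 of the 10, against 13.6% of all genes tested, and the genotypes were fully apart in 0 of the 10, against 3.64% of all genes tested. DESeq2 and limma-voom also called 0 of them. The fitted log2 fold change (Thrb hep-/- minus wild-type) was positive for 8 and negative for 2, with a median of 0.090, beside a median of 0.00054 over all genes tested. The intervals tell how large a change could have been missed. Their upper ends lay at 85.6% above the wild-type level for Gclc, but at 22.8% for Txnrd1, 21.2% for Gpx4 and 19.8% for Srxn1, and their lower ends at −38.6% for Nqo1 and −33.6% for Hmox1.

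**Figure D1:**
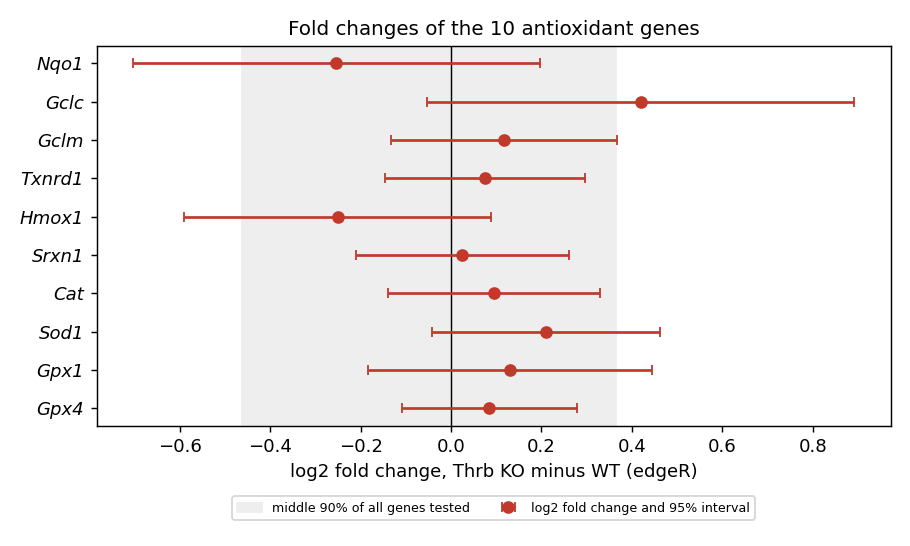
Log2 fold change (x axis, Thrb hep-/- minus wild-type, edgeR) of each of the 10 genes (y axis), with points for the estimate and bars for the 95% interval from 5 mice per genotype; the grey band holds the middle 90% of all genes tested. All 10 intervals include 0, Gclc lies furthest to the right at 0.42, and the intervals of Nqo1 and Gclc are the widest.

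Gclc encodes the catalytic subunit of glutamate-cysteine ligase, the rate-limiting enzyme of glutathione synthesis, and had the largest fitted difference of the 10 genes. Its gene lies on chr9:77754535-77794485 (GRCm38, plus strand, ENSMUSG00000032350). Normalized CPM of Gclc were 175, 173, 168, 127 and 87.2 for the wild type (mice 1 to 5) and 202, 131, 226, 253 and 166 for Thrb hep-/- (mice 1 to 5). Of the Thrb hep-/- mice, 1, 3 and 4 were above every wild-type mouse, while mice 2 and 5 lay within the wild-type range, and wild-type mouse 5 was the lowest of all 10. The means were 146 ± 38.4 for the wild type and 195 ± 48.3 for Thrb hep-/- (SD, n = 5 each). The log2 fold change was 0.42 (standard error 0.22, 95% interval −0.054 to 0.89), or 33.7% higher with an interval from −3.68% to 85.6%, and the adjusted p was 0.43 (edgeR's quasi-likelihood test). The test thus did not separate this difference from the spread between mice, and its interval includes 0.

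Gclm encodes the modifier subunit of the same enzyme, which lowers its feedback inhibition by glutathione (chr3:122245557-122270732, plus strand, ENSMUSG00000028124). Normalized CPM of Gclm were 211, 229, 181, 209.7 and 176 for the wild type (mice 1 to 5) and 194, 195, 249, 261 and 192 for Thrb hep-/- (mice 1 to 5). Only Thrb hep-/- mice 3 and 4 exceeded the wild-type range, and the other 3 lay inside it. The means of 201 ± 22.1 for the wild type and 218 ± 34.1 for Thrb hep-/- (SD, n = 5 each) gave a log2 fold change of 0.12 (95% interval −0.13 to 0.37, adjusted p = 0.72 with edgeR). Of the exon sequence of Gclm, 4.71% is shared with 2 other genes, Gm17494 and Gm6061, and reads over both were discarded, which leaves its level uncertain. The log2 ratio of Gclm to Gclc was 0.50 ± 0.37 for the wild type and 0.18 ± 0.24 for Thrb hep-/- (SD, n = 5 each). The difference of −0.32 did not pass an exact permutation test over the 10 mice (two-sided, p = 0.143, where 0.0079 is the smallest p that 5 against 5 allow). The ratio spanned 0.11 to 1.02 among wild-type mice, with the highest value in mouse 5, and −0.060 to 0.58 among Thrb hep-/- mice.

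Txnrd1 encodes the cytosolic thioredoxin reductase, a selenoenzyme that keeps thioredoxin reduced (chr10:82833951-82897712, plus strand, ENSMUSG00000020250). Normalized CPM of Txnrd1 were 149.8, 142, 153, 169 and 153 for the wild type (mice 1 to 5) and 150.2, 138, 170.1, 200.3 and 149 for Thrb hep-/- (mice 1 to 5). The wild-type values lay close together, and Thrb hep-/- mouse 4 stood above them by more than their whole range. The log2 fold change of 0.075 (95% interval −0.15 to 0.30, adjusted p = 0.82 with edgeR) rested on that mouse, since it was −0.014 without it. Srxn1 encodes sulfiredoxin, which repairs overoxidised peroxiredoxins (chr2:152105516-152111376, plus strand, ENSMUSG00000032802). Normalized CPM of Srxn1 were 44.7, 47.4, 46.4, 43.1 and 49.4 for the wild type (mice 1 to 5) and 39.6, 45.8, 50.4, 59.7 and 39.5 for Thrb hep-/- (mice 1 to 5). The group means were nearly equal, at 46.2 ± 2.43 for the wild type and 47.0 ± 8.46 for Thrb hep-/- (SD, n = 5 each), but the coefficient of variation was 5.27% among wild-type and 18.0% among Thrb hep-/- mice. Thrb hep-/- mice 3 and 4 were above and mice 1 and 5 below every wild-type mouse, so that the fitted log2 fold change of 0.025 (95% interval −0.21 to 0.26) turned to −0.076 without mouse 4 and to −0.0013 without mouse 3. A test of the difference in spread was not made.

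Nqo1, the quinone reductase often used as a readout of NRF2 activity, was the least expressed of the 10 genes and had one of the 2 negative estimates (chr8:107388225-107403206, minus strand, ENSMUSG00000003849). Normalized CPM of Nqo1 were 9.20, 8.95, 7.68, 3.87 and 6.29 for the wild type (mice 1 to 5) and 7.54, 6.37, 5.87, 5.23 and 5.20 for Thrb hep-/- (mice 1 to 5). Each Thrb hep-/- mouse lay below the wild-type median of 7.68, but wild-type mouse 4 was the lowest of all 10 mice, so the genotypes overlapped. The log2 fold change was −0.25 (95% interval −0.70 to 0.20, adjusted p = 0.65 with edgeR). Raw counts of Nqo1 were between 99 and 256 per library. Hmox1, the inducible haem oxygenase, which releases iron, carbon monoxide and biliverdin from haem, had the other negative estimate (chr8:75093621-75100589, plus strand, ENSMUSG00000005413). Normalized CPM of Hmox1 were 11.9, 16.4, 20.8, 17.9 and 18.4 for the wild type (mice 1 to 5) and 18.5, 15.3, 11.5, 14.2 and 12.3 for Thrb hep-/- (mice 1 to 5). The genotypes overlapped over most of their ranges, and the log2 fold change was −0.25 (95% interval −0.59 to 0.089, adjusted p = 0.53 with edgeR).

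Hmox1 is also expressed by Kupffer cells, the resident macrophages that take up aged red cells. All 8 Kupffer cell markers had lower fitted expression in Thrb hep-/- livers, with a median log2 fold change of −0.72, and 0 of the 8 were past the threshold. Their summed normalized CPM were between 118 and 447 in wild-type and between 135 and 280 in Thrb hep-/- livers, and no marker of the list was at 0 throughout. Wild-type mouse 1 had both the lowest Hmox1 and the lowest Kupffer cell sum of its genotype, and so did Thrb hep-/- mouse 3. Wild-type mice 3 and 5 had the highest Kupffer cell sums (399 and 447) and the highest Hmox1 values (20.8 and 18.4) of their genotype. Wild-type mouse 4 had more Hmox1 than mouse 2 (17.9 and 16.4) at a lower sum (264 and 362). Thrb hep-/- mouse 1 had the highest Hmox1 of its genotype (18.5) at the second lowest Kupffer cell sum (174). Thrb hep-/- mouse 2 had the highest sum (280) at a Hmox1 of 15.3. The part of these cells in the Hmox1 values was not tested. Summed markers of erythroid cells were between 193 and 310 in wild-type and between 149 and 233 in Thrb hep-/- livers, with 5 of 7 tested and 0 past the threshold. For stellate cells 2 of 7 markers, Des and Acta2, were higher at the threshold, with sums between 82.7 and 127 in wild-type and between 117 and 137 in Thrb hep-/- livers, and for leukocytes 1 of the 2 tested, S100a8, was lower. None of the 6 endothelial and 3 tested cholangiocyte markers passed it.

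Cat encodes catalase, the peroxisomal enzyme that splits hydrogen peroxide (chr2:103453849-103485160, minus strand, ENSMUSG00000027187). Normalized CPM of Cat were 2302, 1860.0, 2129, 2500.1 and 2122 for the wild type (mice 1 to 5) and 2582, 2144, 2241, 2194 and 2498 for Thrb hep-/- (mice 1 to 5). All 5 Thrb hep-/- mice were above the wild-type median, yet only mouse 1 exceeded the wild-type range, and the log2 fold change was 0.096 (95% interval −0.14 to 0.33, adjusted p = 0.76 with edgeR). Sod1 encodes the cytosolic copper and zinc superoxide dismutase (chr16:90220754-90226329, plus strand, ENSMUSG00000022982). Normalized CPM of Sod1 were 563, 440.4, 552, 606 and 482 for the wild type (mice 1 to 5) and 562, 751, 553, 605 and 587 for Thrb hep-/- (mice 1 to 5). Again all 5 Thrb hep-/- mice were above the wild-type median, and mouse 2 stood far above the other 4. The means were 529 ± 66.4 for the wild type and 612 ± 80.5 for Thrb hep-/- (SD, n = 5 each), a log2 fold change of 0.21 (95% interval −0.042 to 0.46, adjusted p = 0.46 with edgeR), which was 0.13 without mouse 2. A stretch of 465 bp of Sod1 is 97.8% identical to the pseudogene Gm8566, and reads that map to several places were not counted.

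Gpx1 encodes the main cytosolic glutathione peroxidase and Gpx4 the peroxidase of membrane lipid peroxides, the enzyme that holds ferroptosis in check. Both are selenoproteins. Normalized CPM of Gpx1 (chr9:108338903-108340343, plus strand, ENSMUSG00000063856) were 1697, 1804, 1658, 2157 and 1772 for the wild type (mice 1 to 5) and 1437, 2523, 1857, 2203 and 1922 for Thrb hep-/- (mice 1 to 5). The Thrb hep-/- values spread on both sides of the wild-type range, from mouse 1 below it to mice 2 and 4 above it, and the log2 fold change was 0.13 (95% interval −0.18 to 0.44, adjusted p = 0.76 with edgeR). Normalized CPM of Gpx4 (chr10:80047166-80056439, plus strand, ENSMUSG00000075706) were 121, 123, 113, 114 and 108 for the wild type (mice 1 to 5) and 99.97, 127, 136, 133 and 117 for Thrb hep-/- (mice 1 to 5). Thrb hep-/- mice 2, 3 and 4 were above all wild-type mice and mouse 1 below them, with a log2 fold change of 0.084 (95% interval −0.11 to 0.28, adjusted p = 0.74 with edgeR). Gpx4 has near-identical copies in the annotation, Gpx4-ps2 and AC122253.3, the longest a stretch of 762 bp in Gpx4-ps2 with 99.7% identity, so its level is uncertain.

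**Figure D2:**
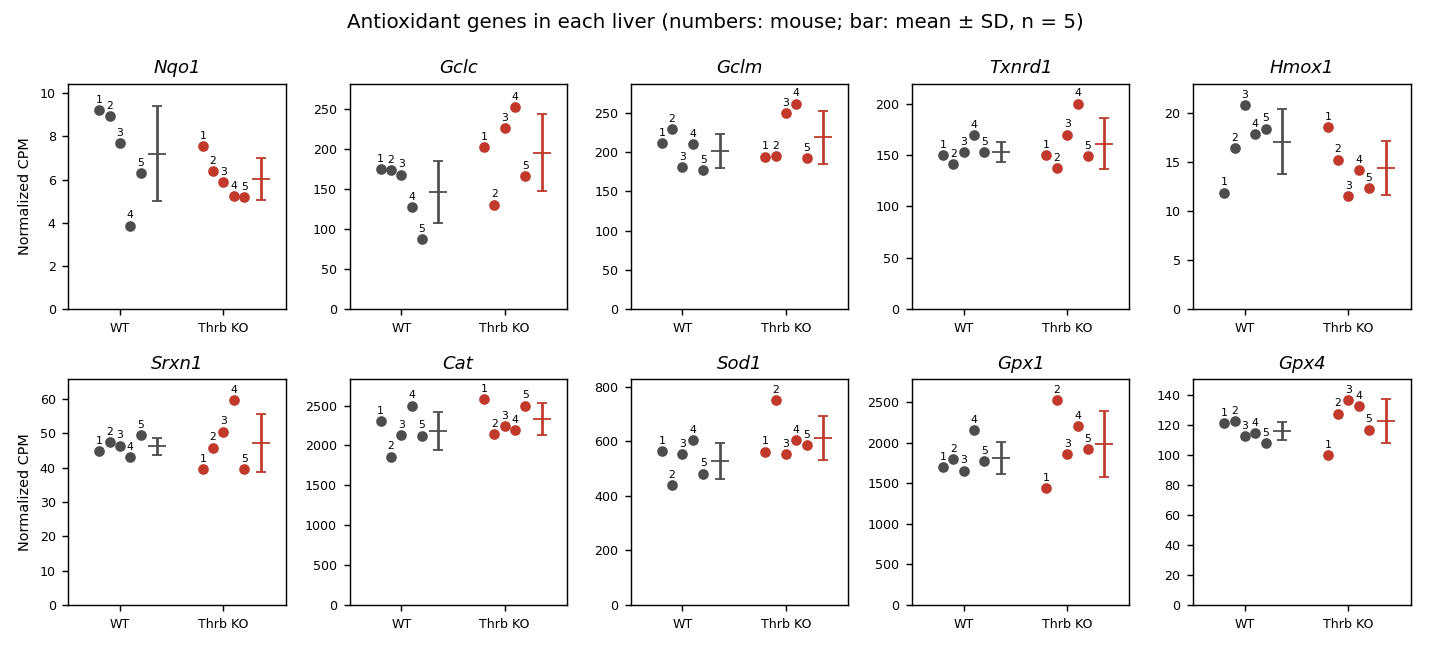
Normalized CPM (y axis, from 0) of the 10 genes in wild-type (grey) and Thrb hep-/- (red) livers; each numbered point is 1 mouse and the bars give the mean ± SD of 5 mice. The genotypes overlap in all 10 panels, and Thrb hep-/- mouse 4 is the highest point for Gclc, Gclm, Txnrd1 and Srxn1.

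Expressed per kilobase of merged exons, Gpx1, Cat and Sod1 were more abundant than each of the inducible NRF2 targets, while Gpx4 overlapped Gclc. Over the 10 mice the mean level (CPM per kilobase) was 1321 for Gpx1, 864 for Cat, 144 for Sod1 and 69.1 for Gpx4. Among the inducible genes it was 45.4 for Gclc, 33.3 for Gclm, 22.2 for Txnrd1, 16.5 for Srxn1, 8.98 for Hmox1 and 4.26 for Nqo1. Gpx1 was thus more abundant than 99.6% and Nqo1 than 54.9% of the genes tested. In this order, the ranges over the 10 mice did not overlap between Gpx1 (997 to 1751) and Cat (712 to 988), between Cat and Sod1 (111 to 189), or between Sod1 and Gpx4 (58.0 to 79.1). The level of Gclc ranged from 23.2 to 67.1 and overlapped both Gpx4 above and Gclm below it, while Gclm (28.0 to 41.5), Txnrd1 (19.4 to 28.3) and Srxn1 (14.0 to 21.2) each overlapped the next. Hmox1 (6.58 to 11.9) and Nqo1 (2.49 to 5.92) stood apart from Srxn1 and from each other. The merged exons can be longer than the main transcript, as for Sod1, which lowers such a level.

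The members varied between mice about as much as other liver genes did. The median SD of log2 CPM within a genotype was 0.189 over the 10 genes and 0.192 over all genes tested, with 0.239 for the 6 inducible and 0.161 for the 4 constitutive genes. Gclc and Nqo1 were the most variable, and only 11.7% and 12.9% of the genes tested had a larger SD. The pattern of Gclc over the 10 mice, measured as the root mean square difference of centred log2 CPM, was closest to that of Amigo1 (0.151), Samd4 (0.161), Pogk (0.179), Frat1 (0.186) and Cmtm4 (0.187), where the median gene differed by 0.467. For Nqo1 the closest were Rab27a (0.179), Lgalsl (0.184), Ly96 (0.190), Pter (0.192) and Pacs1 (0.203), against 0.413 for the median gene. The other members were left out of this ranking, so it does not tell how close they were, and this likeness is a description over 10 livers.

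Of the 6 inducible genes, 4 had the same 2 highest Thrb hep-/- mice, a pattern that was looked for after the values had been seen. Gclc, Gclm, Txnrd1 and Srxn1 were all highest in mouse 4 and second highest in mouse 3, and in each of these 4 genes both mice were above all wild-type mice. Of all 12234 genes tested, mouse 3 was above all wild-type mice in 2465 and mouse 4 in 2671. The constitutive Gpx4 likewise had mice 3 and 4 as its 2 highest, both above all wild-type mice, whereas Cat, Sod1 and Gpx1 did not. Nqo1 and Hmox1 did not share this order, with mice 3 and 4 at 5.87 and 5.23 normalized CPM of Nqo1 and at 11.5 and 14.2 of Hmox1. The summed normalized CPM of the 6 inducible genes were 601, 616, 576, 571 and 490 for the wild type and 612, 530, 713, 793 and 564 for Thrb hep-/-, in the order of the mouse numbers. Thrb hep-/- mouse 4 also stood out in 27 further NRF2 targets, where it was the highest of all 10 mice in 16 (59.3%), beside 11.8% of all genes tested. Thrb hep-/- mouse 3 was the highest of all 10 in only 1 of the 27 (3.7%), beside 7.73% of all genes tested. It was above all wild-type mice in 17 of the 27. Thrb hep-/- mice 3 and 4 also had the lowest mean log2 CPM of the 16 acute-phase genes, at 8.27 and 8.19, while the other 3 of their genotype were between 8.76 and 9.29 and the wild-type mice between 9.54 and 11.41. Among the wild-type mice the values were mixed. Mouse 2 had the highest acute-phase mean (11.41) and the highest inducible sum (616), and mouse 3 had the lowest mean (9.54) with a sum of 576. Mouse 5, in contrast, had the lowest sum (490) at a mean of 10.87, below only that of mouse 2. Whether the sums follow the acute-phase mean was not tested. With a component of the acute-phase genes as covariate, the fitted log2 fold change turned to −0.016 for Gclc, −0.23 for Txnrd1, −0.048 for Srxn1, −0.095 for Cat and 0.083 for Nqo1, and kept its sign for the other 5. That component correlated with genotype at an absolute r of 0.849, so the acute-phase state and the genotype cannot be told apart in these fits.

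**Figure D3:**
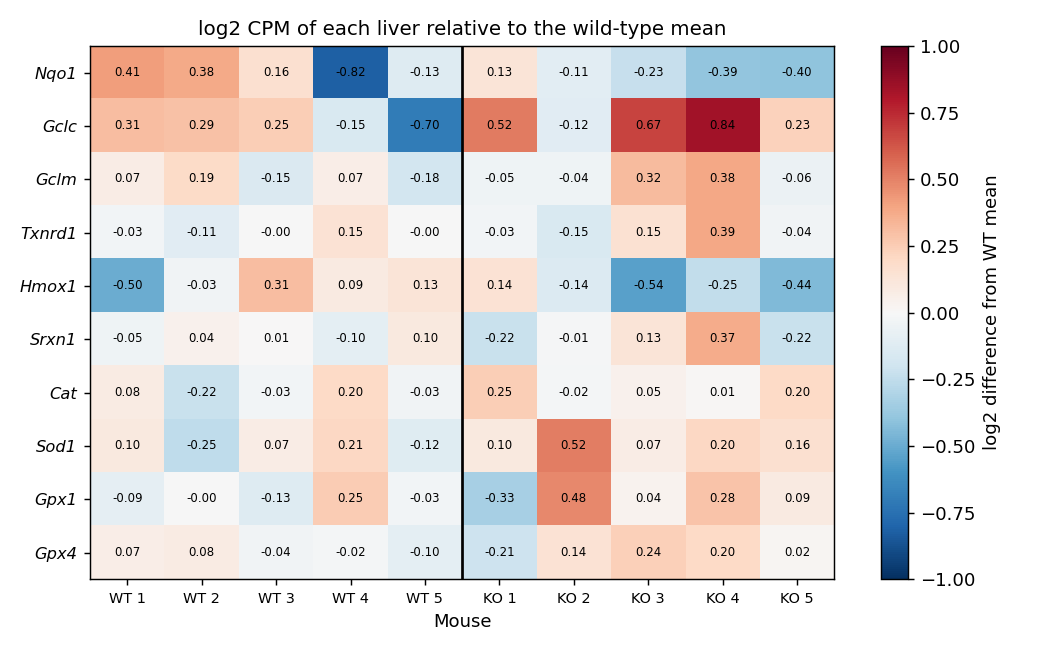
Difference of log2 CPM from the wild-type mean (colour and printed value) for each of the 10 genes (rows) in each of the 10 livers (columns, wild-type left of the line). Gclc, Gclm, Txnrd1 and Srxn1 are above the wild-type mean in Thrb hep-/- mice 3 and 4, whereas Nqo1 and Hmox1 are below it in the same mice.

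None of the genes that control NRF2 passed the threshold. Of 14 regulators, all tested, 0 were past the threshold, 9 had a positive and 5 a negative estimate, and the median log2 fold change was 0.064. Normalized CPM of Nfe2l2 itself were 61.9 ± 8.50 for the wild type and 61.7 ± 4.60 for Thrb hep-/- (SD, n = 5 each), with a log2 fold change of −0.0061 (95% interval −0.22 to 0.21) whose sign turned under 9 of 21 alternatives. The estimate was −0.13 for Keap1 (95% interval −0.32 to 0.074), the gene of its cytoplasmic inhibitor, and 0.063 for Bach1 (95% interval −0.22 to 0.35), that of the competing repressor. The 2 smallest p-values of the list belonged to Maff, which encodes a small MAF partner, and to Nfe2l1, an NRF2 relative. Normalized CPM of Maff were 5.35 ± 2.08 for the wild type and 8.42 ± 1.82 for Thrb hep-/- (SD, n = 5 each), a log2 fold change of 0.65 with a standard error of 0.26 and an adjusted p of 0.30 (edgeR), and those of Nfe2l1 were 135 ± 10.2 for the wild type and 155 ± 18.6 for Thrb hep-/- (SD, n = 5 each), a log2 fold change of 0.19 with a standard error of 0.092 and an adjusted p of 0.39 (edgeR). These are transcript levels, and NRF2 protein was not measured.

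A list of other NRF2 targets held genes that did pass, as 5 of the 27 tested (18.5%) were past the threshold, all of them higher in Thrb hep-/- livers, beside 1.51% of all genes tested in that direction. They were Me1, Abcc3, Gsta2, Gstm1 and Blvrb. In this list 11 of 27 had an unadjusted p below 0.05, 23 had a positive and 4 a negative estimate, and the median log2 fold change was 0.24, while Slc7a11, Gsta1 and Cbr3 were expressed too little to be tested. The list was drawn up with earlier results of these data known, so its share is a description. Whether it differed from the 10 members was not tested. Me1 encodes the malic enzyme that supplies NADPH for lipid synthesis and is also a textbook target of thyroid hormone in liver. Its normalized CPM were 139.6, 216, 275, 195 and 203 for the wild type (mice 1 to 5) and 341, 240.4, 450.2, 383 and 359 for Thrb hep-/- (mice 1 to 5), a log2 fold change of 0.79 with a standard error of 0.19 and an adjusted p of 0.065 (edgeR). Every Thrb hep-/- mouse but mouse 2 was above all wild-type mice. Letters of the antioxidant response element, TGACTCAGC, began 6 bases before the first annotated start of Me1. A near-identical pseudogene, Gm7049, shares a stretch of 1716 bp with Me1 at 98.4% identity, so its level is uncertain.

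Abcc3 encodes an exporter of conjugated bile acids and drugs on the basolateral membrane. Its normalized CPM were 154, 92.0, 149, 161 and 84.3 for the wild type (mice 1 to 5) and 293, 256, 161, 196 and 231 for Thrb hep-/- (mice 1 to 5), a log2 fold change of 0.83 with a standard error of 0.21 and an adjusted p of 0.090 (edgeR), and Thrb hep-/- mouse 3 was at the level of the highest wild-type mouse. Gsta2 and Gstm1 encode glutathione S-transferases, which couple glutathione to electrophiles. Normalized CPM of Gsta2 were 7.53, 4.23, 8.61, 9.53 and 7.75 for the wild type (mice 1 to 5) and 13.3, 15.8, 26.8, 30.7 and 8.59 for Thrb hep-/- (mice 1 to 5), a log2 fold change of 1.34 with a standard error of 0.35 and an adjusted p of 0.10 (edgeR), with Thrb hep-/- mice 3 and 4 highest and mouse 5 within the wild-type range. Those of Gstm1 were 712, 813, 1158, 839 and 733 for the wild type (mice 1 to 5) and 1073, 985, 1652, 1953 and 1200.3 for Thrb hep-/- (mice 1 to 5), a log2 fold change of 0.69 with a standard error of 0.20 and an adjusted p of 0.13 (edgeR), again with mice 3 and 4 highest. Both genes belong to families with near-identical members, Gsta2 sharing 870 bp with Gsta1 at 97.2% identity, and their levels are uncertain. Blvrb, which encodes a biliverdin reductase, was the only one of the 5 in which the genotypes were apart. Its normalized CPM were 64.2, 56.2, 66.3, 58.8 and 50.3 for the wild type (mice 1 to 5) and 71.4, 86.0, 81.8, 99.3 and 86.1 for Thrb hep-/- (mice 1 to 5), a log2 fold change of 0.52 with a standard error of 0.099 and an adjusted p of 0.023 (edgeR).

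**Figure D4:**
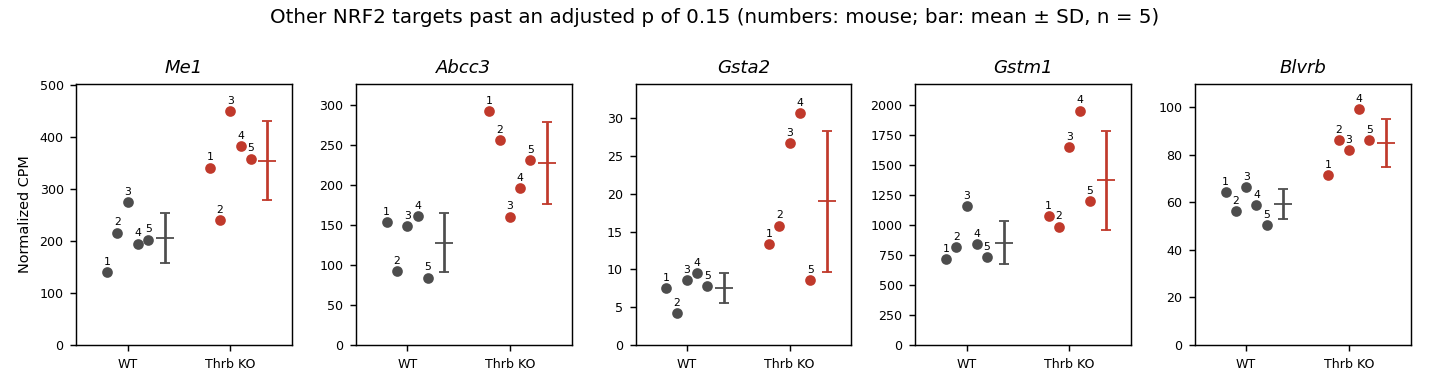
Normalized CPM (y axis, from 0) of the 5 further NRF2 targets past an adjusted p of 0.15, drawn as for the 10 genes, with 1 numbered point per mouse and bars for the mean ± SD of 5 mice. Blvrb has no overlap between the genotypes, and Thrb hep-/- mice 3 and 4 are the 2 highest points for Gsta2 and Gstm1.

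The number of calls moved with the mice included, over all genes as well as in this list. The count of 5 became 1 without wild-type mouse 5, 2 without wild-type mouse 2 or without Thrb hep-/- mouse 3, and 3 without wild-type mouse 1 or without Thrb hep-/- mouse 4, whereas DESeq2 gave 8 and limma-voom 9. Over all genes tested the 499 calls became 239 without wild-type mouse 5, 227 without wild-type mouse 2, 222 without Thrb hep-/- mouse 3, 485 without wild-type mouse 1 and 346 without Thrb hep-/- mouse 4. All 10 such fits kept the direction, with log2 fold changes from 0.68 to 0.91 for Me1, 0.71 to 0.93 for Abcc3, 1.10 to 1.52 for Gsta2 and 0.53 to 0.83 for Gstm1. Blvrb was past the threshold whichever mouse was left out, with log2 fold changes between 0.46 and 0.58. Me1 lost its call without wild-type mouse 5 (0.78) and without Thrb hep-/- mouse 3 (0.69), where log2 fold changes are given in brackets. Abcc3 lost it without wild-type mice 2 and 5 in turn (0.73 and 0.71) and without Thrb hep-/- mice 2 and 5 in turn (0.79 and 0.82). Gsta2 lost it without wild-type mice 1, 2, 3 and 5 in turn (1.35, 1.19, 1.39 and 1.35) and without Thrb hep-/- mice 3 and 4 in turn (1.19 and 1.10). Gstm1 lost it without wild-type mice 1, 2, 4 and 5 in turn (0.64, 0.68, 0.69 and 0.64) and without Thrb hep-/- mice 3, 4 and 5 in turn (0.61, 0.53 and 0.73). When the component of acute-phase genes was a covariate, 0 of the 27 were called, but over all genes tested the 499 calls also fell to 7.

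The paralogs of the members gave no call. Of 11 tested peroxidases, superoxide dismutases and peroxiredoxins, 0 were past the threshold, with 9 positive and 2 negative estimates and a median log2 fold change of 0.092. For Sod2, the mitochondrial superoxide dismutase, normalized CPM were 154 ± 9.08 for the wild type and 173 ± 16.6 for Thrb hep-/- (SD, n = 5 each), a log2 fold change of 0.17 with a standard error of 0.083 and an adjusted p of 0.40 (edgeR). The extracellular Sod3 was at 0.25 (95% interval −0.060 to 0.56) and the secreted peroxidase Gpx3 at 0.47 (95% interval −0.10 to 1.04) as log2 fold changes. For the mitochondrial thioredoxin reductase Txnrd2 the log2 fold change was 0.11 (95% interval −0.086 to 0.30), and for the constitutive haem oxygenase Hmox2 it was −0.14 (95% interval −0.35 to 0.065). Per kilobase of merged exons the means over all mice were 16.4 for Sod2, 14.9 for Hmox2, 6.45 for Txnrd2, 4.97 for Sod3 and 3.51 for Gpx3. Exons of Keap1, Sod2 and Hmox2 overlap other genes, so their levels are uncertain.

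In the thioredoxin and glutaredoxin systems, 1 of 17 genes was past the threshold, and 13 had a positive and 4 a negative estimate. It was Txnip, which binds thioredoxin and blocks its reducing activity and whose transcription follows glucose. Normalized CPM of Txnip were 64.3, 28.8, 69.1, 67.6 and 47.2 for the wild type (mice 1 to 5) and 69.6, 141, 133, 100.3 and 86.5 for Thrb hep-/- (mice 1 to 5), a log2 fold change of 0.94 with a standard error of 0.26 and an adjusted p of 0.13 (edgeR). Each Thrb hep-/- mouse was above each wild-type mouse, but mouse 1 only just. Leaving out 1 mouse at a time ended the call in 8 of 10 cases, at log2 fold changes between 0.77 and 1.03, and the call held without wild-type mouse 4 and without Thrb hep-/- mouse 1. Txnip overlaps the antisense gene Gm15441, which unstranded counting cannot separate from it.

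In glutathione synthesis, recycling and breakdown, 3 of 17 tested genes were past the threshold, 2 higher and 1 lower, with 13 positive and 4 negative estimates and a median log2 fold change of 0.083. Glo1 and Hagh, the enzymes that remove methylglyoxal in succession with glutathione as cofactor, were higher in Thrb hep-/- livers. Normalized CPM were 225 ± 22.3 for the wild type and 302 ± 21.9 for Thrb hep-/- (SD, n = 5 each) for Glo1 (log2 fold change 0.43, standard error 0.091, adjusted p = 0.041, edgeR). For Hagh they were 172 ± 6.83 for the wild type and 217 ± 21.9 for Thrb hep-/- (SD, n = 5 each), a log2 fold change of 0.33 with a standard error of 0.083 and an adjusted p of 0.077 (edgeR). Ggct, which releases oxoproline from gamma-glutamyl peptides in the breakdown of glutathione, fell from 7.06 ± 0.760 (SD, n = 5) to 4.98 ± 0.834 (SD, n = 5) normalized CPM (log2 fold change −0.50, standard error 0.13, adjusted p = 0.092, edgeR). In all 3 genes the genotypes were apart. Glo1 kept its call whichever mouse was left out but shares near-identical stretches with many other genes, so its level is uncertain. Hagh lost its call without wild-type mice 3 and 5 in turn (0.32 and 0.32) and without Thrb hep-/- mice 3 and 5 in turn (0.32 and 0.31). Ggct lost it without wild-type mice 1, 4 and 5 in turn (−0.49, −0.45 and −0.49) and without Thrb hep-/- mice 3, 4 and 5 in turn (−0.42, −0.49 and −0.49).

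Among the 10 haem and iron partners of Hmox1, Blvrb was higher and Hpx, the plasma carrier of haem and itself an acute-phase gene, was lower. Normalized CPM of Hpx were 11194, 13403, 6782, 8026 and 11057 for the wild type (mice 1 to 5) and 4835, 7830.3, 4429, 4136 and 5192 for Thrb hep-/- (mice 1 to 5), a log2 fold change of −0.93 with a standard error of 0.22 and an adjusted p of 0.059 (edgeR), and its log2 fold change was −0.88 and no longer called without Thrb hep-/- mouse 3. Of 8 tested genes of NADPH supply only Me1 was past the threshold, with 4 positive and 4 negative estimates and a median of −0.0042. Of 15 tested genes for selenoproteins and selenocysteine insertion, to which Txnrd1, Gpx1 and Gpx4 are functionally tied, only Dio1 was. Dio1 encodes the deiodinase that converts thyroxine to triiodothyronine and is a classical target of THRB in liver. Its normalized CPM were 141, 169, 156, 208 and 156 for the wild type (mice 1 to 5) and 13.8, 16.3, 21.9, 25.9 and 23.6 for Thrb hep-/- (mice 1 to 5), a log2 fold change of −3.03 with a standard error of 0.18 and an adjusted p of 1.26e-05 (edgeR). The other 14 had log2 fold changes between −0.18 and 0.23, and the median of the list was 0.046. Of 13 tested sources of reactive oxygen species, 0 were past the threshold but 5 had an unadjusted p below 0.05. The smallest p-values were those of Uox, the peroxisomal urate oxidase with normalized CPM of 1972 ± 196 for the wild type and 2463 ± 153 for Thrb hep-/- (SD, n = 5 each), a log2 fold change of 0.32 with a standard error of 0.10 and an adjusted p of 0.17 (edgeR), and of the NADPH oxidase Nox4 (log2 fold change 0.48, standard error 0.17, adjusted p = 0.23, edgeR).

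Over all 134 genes of these lists other than the 10 members, 124 were tested and 11 (8.87%) were past the threshold, 8 higher and 3 lower, beside 4.08% of all genes tested. The median log2 fold change was 0.083, close to the 0.090 of the 10 members. These lists, too, were drawn up with earlier results of these data known.

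**Figure D5:**
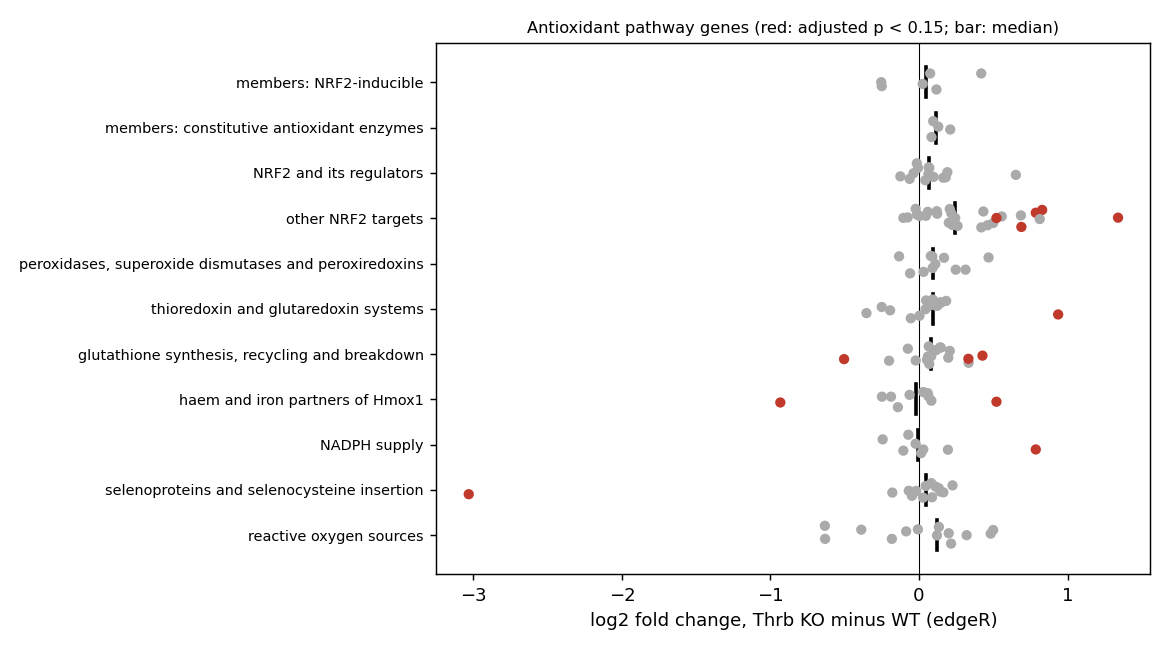
Log2 fold change (x axis, Thrb hep-/- minus wild-type, edgeR) of each tested gene in the 11 lists (y axis); red points are past an adjusted p of 0.15, grey points are not, and the black bars mark the list medians. Both lists of members hold grey points only, while 5 red points lie to the right in the list of other NRF2 targets, and Dio1 is the single point near −3.03.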

How the data were processed

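Liver mRNA of 5 wild-type and 5 Thrb hep-/- mice was sequenced with a stranded DNBSEQ kit, 1 library per sample, and the genotype was taken from the labels. The labels number the samples without naming animals, and each sample was taken as a separate mouse. The p-values judge the difference between genotypes against the spread between these samples. Per the submitters' processing notes and the study's methods, the authors mapped reads on mm10 (GRCm38) with HISAT2 2.2.1 and deposited raw counts per Ensembl gene from HTSeq 0.9.1. Reads were counted on exons in union mode at a minimum quality of 10, without strand and without reads that mapped to several places or genes, which lowers genes with near-identical copies. The authors' own comparison table from edgeR 3.36.0 (fold changes on the log2 scale, average log2 CPM, F, p-values and adjusted p-values) was not used.

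The filter required 1 CPM or more in 5 or more libraries, TMM factors were applied, and genotypes were compared with edgeR 4.0.16 in R 4.3.3 (quasi-likelihood F-test, robust settings, Benjamini-Hochberg adjustment over all genes tested at 0.15, after the study, and at 0.05). The standard error was obtained from the fold change and F (log2 fold change over root F, without sign), and 95% intervals use the t distribution. Normalized CPM use TMM-scaled library sizes, and levels per kilobase divide them by merged exons of GENCODE M21, where 260 of 55401 identifiers had no symbol. Near-identical copies are stretches of at least 100 bp with at least 95% identity in other genes. Single ratios were compared by exact permutation of genotype over the 10 mice. The code was tested on simulated data.

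Named genes are the 10 members, Thrb, Nfe2l2, Keap1, Bach1, paralogs of members, every called gene of a list (or its 2 genes with the smallest p), and the 5 genes nearest to each of the 2 most variable members. The members, lists and tests were chosen with earlier results of these data known. Alternatives were DESeq2 1.42.0, limma-voom (limma 3.58.1), upper-quartile or RLE normalization, filterByExpr, no filter, the likelihood ratio test, no robust settings, a block for the replicate number, a clock or acute-phase component as covariate, a prior count of 2 for the ratio, and leaving out each mouse. No pair of libraries was a duplicate (lowest chi-square per degree of freedom 25.9).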

Additional observations from a re-analysis of the deposited data

Results flagged for a closer look

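In 72 groups of 5 values (the named genes and the library totals in each genotype), 4 had a sample far from the other 4 by Dixon's criterion, where chance alone gives about 3.6. Thrb hep-/- replicate 2 had 751 normalized CPM of Sod1, above 553 to 605 in the others of its genotype. The same mouse had 7830 normalized CPM of Hpx, above 4136 to 5192, and the lowest total count of its genotype, 27779196 against 28441288 to 28590704. Wild-type replicate 3 had 1158 normalized CPM of Gstm1, above 712 to 839.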

How the results depend on the processing

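Of 21 alternatives, none called any of the 10 members. Alternatives for the pathway lists and their genes were added after seeing the data. The 499 genes called became 885 with DESeq2, 880 with limma-voom and 7 with the acute-phase component, the other NRF2 targets 8, 9 and 0 instead of 5 (2 without a filter and 2 with the clock component), and the pathway genes other than members 19, 18 and 1 instead of 11 (6 with the clock component). Leaving out 1 mouse gave 222 to 665, 1 to 6 and 4 to 11. With each mouse left out, the log2 fold change of Txnrd1 ranged from −0.014 to 0.13, of Srxn1 from −0.076 to 0.082 (−0.0013 without Thrb hep-/- replicate 3), of Nfe2l2 from −0.078 to 0.043 (0.0095, 0.011, 0.011, 0.017 and 0.031 among those above 0) and of Bach1 from −0.038 to 0.15 (−0.00029 without Thrb hep-/- replicate 5). That of Nfe2l2 was also 0.0054 with limma-voom and 0.057 with the clock component. With the acute-phase component it was −0.33 for Thrb (edgeR adjusted p = 1.0, and as low as 0.00098 among the alternatives), 0.083 for Nqo1, −0.016 for Gclc, −0.23 for Txnrd1, −0.048 for Srxn1, −0.095 for Cat, −0.18 for Bach1, −0.14 for Txnrd2, −0.0036 for Gstm1 and 0.076 for Hpx, where 0.849 is the absolute correlation of that component with genotype and the cause was not tested. Hpx is itself among the genes from which the acute-phase component was computed, so its adjusted value is not independent of that component. The labels number the samples of each genotype from 1 to 5, but samples with the same number did not deviate together (correlations from −0.20 to 0.0091), so the numbers do not pair them. With the replicate number as a block 348 genes, 0 members, 6 other NRF2 targets and 9 pathway genes were called, Nfe2l2 was at 0.0017, and Abcc3, Txnip, Ggct and Hagh were not called. The Gclm to Gclc log2 ratio stayed between −0.42 and −0.19. The lowest raw count of a member was 99, and 5 mice per genotype set the widths of the intervals.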
